A study of Homo sapiens with 24 samples.

Results

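The genes described here encode the subunits of the receptors for glutamate, GABA and glycine, with their antisense RNAs. They are the 50 genes whose symbols begin with the stems of the AMPA, kainate, NMDA, delta and metabotropic glutamate receptor subunits, the GABA-A and GABA-B receptor subunits and the glycine receptor subunits, out of 19775 genes named on the arrays. They comprise 45 receptor subunit genes and 5 antisense RNAs, and are read by 114 of 54675 probe sets. RNA came from D425 cells, an established medulloblastoma line usually assigned to group 3, grown in MEM with 10% fetal calf serum. The cells labelled shOTX2 carried a doxycycline-inducible hairpin against OTX2, a homeobox transcription factor, and were plated 24 h before doxycycline was added. RNA was taken at 0, 8, 16, 24, 48 and 96 h in 3 independent shOTX2 time courses, and at the same times in 1 course of control cells, whose construct the labels do not describe. This gave 24 Affymetrix U133 Plus 2.0 arrays, 18 of shOTX2-labelled cells and 6 of control cells, all from 1 line, and each control time had 1 array. The labels do not state how many clones the shOTX2 cells came from.

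Glutamate is the main fast excitatory transmitter of the brain, and GABA and glycine are its main inhibitory ones. AMPA, kainate and NMDA receptors are glutamate-gated cation channels, GABA-A and glycine receptors are chloride channels, and metabotropic glutamate receptors and GABA-B receptors signal through G proteins. Which subunits a neuron makes changes as it matures, and cerebellar granule neurons, whose precursors give rise to some medulloblastomas, express many of them.

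Signals are MAS5 intensities on a linear scale, and array medians lay between 16.3 and 20.6. The OTX2 transcript itself read 3841.5, 4398.3 and 4324.3 in the shOTX2-labelled arrays at 96 h, against 4417.4, 4839.4 and 4719.5 at 0 h, a log2 change of -0.15 that was not called (limma, adjusted p = 0.172), and its second probe set changed by 0.12. That second probe set read 2411.8 to 2451.4 at 8 h against 2897.6 to 3198.3 at 0 h, a difference that was not called either. By the first probe set the 96 h changes were -0.20, -0.14 and -0.13 in the 3 shOTX2-labelled courses and 0.11 in the control course. Its control arrays read 4901.8 to 5357, above every shOTX2-labelled array, 0 h included. The mRNA signal of the targeted gene was thus slightly lower in each course by 1 probe set, but no fall was called. That test had no block for the time course, and a blocked one is not given for OTX2. The groups are named by their labels, and every direction given rests on those labels. Of the 5 group 3 markers tested, MYC and IMPG2 fell and CRX rose at 96 h, with MYC at 2869.3 to 3217.4 at 96 h against 4581.5 to 5316.7 at 0 h. Of the 7 neuronal markers tested, 6 rose at 96 h, where 21.1% of all genes tested were called higher. MAP2 and RBFOX3 lay below every array median at 0 h and in the control arrays. They passed the filter through later shOTX2-labelled arrays, while NEFL and NEFM did not pass, so this count is descriptive. The summed signal of all 9 listed was 6644.9 to 7245.6 in the 96 h arrays against 4008.8 to 5173.7 at 0 h. Fibroblast markers moved too: 3 of 4 tested rose (COL1A2, COL3A1 and PDGFRB), with a summed signal over all 5 listed of 156.1 to 308.5 at 96 h against 39.2 to 73.5 at 0 h. COL3A1 was at 1 to 9 at 0 h and 1.1 to 17.7 in control arrays, so this count is descriptive too. Of the astrocyte and oligodendrocyte markers, 1 of 4 tested was lower (MAG), and the 1 immune or endothelial marker tested, PECAM1, was not called. The part of these cell types in the receptor results was not tested, and the fibroblast markers DCN, at 8.3 to 18.3 at 96 h against 8.2 to 21.2 at 0 h, and LUM, at 12.4 to 13.8 at 96 h against 2.3 to 10.8 at 0 h, stayed near or below the array medians. In bulk RNA, fewer cells of a type and less RNA per cell cannot be told apart.

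Upstream sequence is shown for the 5 genes whose late-against-early change differed between the shOTX2-labelled and control courses (GRIA2, GRIK2, GRIN2D, GABBR2 and GABRQ, described below). Each line gives the 250 bases before a start, 5′ to 3′ on the gene's strand, from RefSeq on GRCh38.p14, with matches to the searched motifs in capitals. For GRIA2 and GRIK2, which have 3 and 2 starts in the table, the most upstream one is shown. The windows are chr4:157219870-157220119 (plus strand) for GRIA2, chr6:101393458-101393707 (plus) for GRIK2, chr19:48393418-48393667 (plus) for GRIN2D, chr9:98708936-98709185 (minus) for GABBR2 and chrX:152637645-152637894 (plus) for GABRQ.
GRIA2: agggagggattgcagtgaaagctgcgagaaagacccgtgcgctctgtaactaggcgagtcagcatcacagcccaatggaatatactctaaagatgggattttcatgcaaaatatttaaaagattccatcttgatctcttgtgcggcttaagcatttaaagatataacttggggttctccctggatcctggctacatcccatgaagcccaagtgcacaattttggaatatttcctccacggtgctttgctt
GRIK2: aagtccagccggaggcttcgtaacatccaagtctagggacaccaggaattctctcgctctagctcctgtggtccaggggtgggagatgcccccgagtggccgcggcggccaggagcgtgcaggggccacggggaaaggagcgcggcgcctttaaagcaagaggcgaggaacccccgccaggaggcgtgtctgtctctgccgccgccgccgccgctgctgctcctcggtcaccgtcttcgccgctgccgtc
GRIN2D: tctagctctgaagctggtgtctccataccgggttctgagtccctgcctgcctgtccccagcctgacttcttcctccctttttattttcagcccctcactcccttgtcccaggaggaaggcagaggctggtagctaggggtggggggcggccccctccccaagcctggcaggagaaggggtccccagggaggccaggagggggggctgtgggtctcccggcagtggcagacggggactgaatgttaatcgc
GABBR2: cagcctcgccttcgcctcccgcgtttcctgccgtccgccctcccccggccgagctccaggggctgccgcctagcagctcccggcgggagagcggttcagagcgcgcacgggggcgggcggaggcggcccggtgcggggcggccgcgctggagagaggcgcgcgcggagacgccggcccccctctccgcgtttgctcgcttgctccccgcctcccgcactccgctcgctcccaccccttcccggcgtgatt
GABRQ: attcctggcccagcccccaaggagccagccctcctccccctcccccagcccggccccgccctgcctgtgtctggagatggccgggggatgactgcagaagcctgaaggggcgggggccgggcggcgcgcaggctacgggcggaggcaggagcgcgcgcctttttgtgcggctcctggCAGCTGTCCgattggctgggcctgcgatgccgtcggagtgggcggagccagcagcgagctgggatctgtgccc

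Of the 50 genes, 42 were found in the table by symbol, with 61 windows in all, and 3 motifs were searched for on both strands. They were TAATCC, the core bound by bicoid-type homeodomain factors such as OTX2 and CRX, then CAGCTG, an E-box, and GGACAGC, the right-hand part of the RE1 element bound by the repressor REST. The shares of all 35116 windows that held them were 5.62%, 14% and 4.76%. Of the 61 windows of the receptor genes, 4 held TAATCC, 6 held CAGCTG and 9 held GGACAGC. None of the 5 genes held TAATCC in a window. The capitals in the GABRQ line are an E-box that overlaps a GGACAGC match on the other strand, 73 and 71 bases before the start. GRIA2 held GGACAGC once on each strand, 228 and 156 bases before its most downstream start, and these stretches, at chr4:157220380-157220409 and chr4:157220452-157220481 on the plus strand, are shown with the match in capitals.
GRIA2 stretch 1: gggagcgaggcGCTGTCCtcggtgctgaaa
GRIA2 stretch 2: gtctcgcggagGGACAGCggctacgggccc
A match is a description of the letters in the window, and binding was not measured.

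The glutamate, GABA and glycine receptor genes were mostly dim in D425 cells. A gene entered the tests when 3 or more arrays read one of its probe sets above their own median. This held for 25 of the 50 genes (50%), against 70.3% of all named genes. The tested ones are 1 of 4 AMPA, 4 of 5 kainate, 4 of 7 NMDA and the delta receptor gene, 5 of 7 metabotropic glutamate, 6 of 15 GABA-A, both GABA-B, 1 of 4 glycine receptor genes and 1 antisense RNA. In the 25 other genes, read by 44 probe sets, the highest signal in any array was 26.5 and the median was 3.1. They were GRIA1, GRIA3, GRIA4, GRIK4, GRIN2A, GRIN2B, GRIN3A, GRM3, GRM7, GABRA3, GABRA4, GABRA6, GABRD, GABRG1, GABRG3, GABRP, GABRR1, GABRR3, GLRA1, GLRA2, GLRA3 and 4 antisense RNAs. At 0 h in the shOTX2-labelled arrays, 12 of the 25 tested genes averaged above 20, 3 above 50 and only GABRA2 above 200. By the probe set used in the tests, GRIA2, GRIK2, GABBR2 and GRIN3B passed through later or control arrays alone. None of their 0 h or 8 h shOTX2-labelled arrays exceeded the median by that probe set. Other kept probe sets of GABBR2 did exceed it there, with 23.2 at 0 h in course 2 and 24.1 at 8 h in course 1. A gene that passes through a late group in which it is high had to differ from 0 h, so the counts below describe the tested genes and support nothing about the family. For GRIA2, GRIK2 and GABBR2 the p-values and group separations below are likewise descriptive, since the filter used the same late arrays.

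Few receptor genes changed, and most of those that did changed at 48 or 96 h. At 8 h none of the 25 was called, against 0% of 13903 genes tested (limma, adjusted p under 0.05), with 0 of the 25 and 462 of all genes at an unadjusted p under 0.05. At 16 h none was called either, against 1.02% of all genes (0.633% higher and 0.388% lower), with 3 of the 25 and 1555 of all genes at an unadjusted p under 0.05. At 24 h 1 gene was higher, GABRQ, and none lower, against 6.15% of all genes called (3.45% higher and 2.7% lower). At 48 h 5 were higher (GRIA2, GRIK2, GRIK3, GABBR2 and GABRQ) and none lower, that is 20% of the 25 against 33.3% of all genes called (16.3% higher and 17% lower). At 96 h 5 were higher (GRIA2, GRIK2, GRIN2D, GRM4 and GABBR2) and 1 lower (GRIK1), that is 24% against 43.6% of all genes called, 21.1% called higher and 22.5% called lower. The share called among receptor genes was thus no larger than the background at 48 or 96 h, and their median log2 change at 96 h was 0.05, against -0.00 for all genes tested. Without the filter 7 of the 50 genes were called at 96 h, against 29.9% of 19775 genes.

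**Figure D1:**
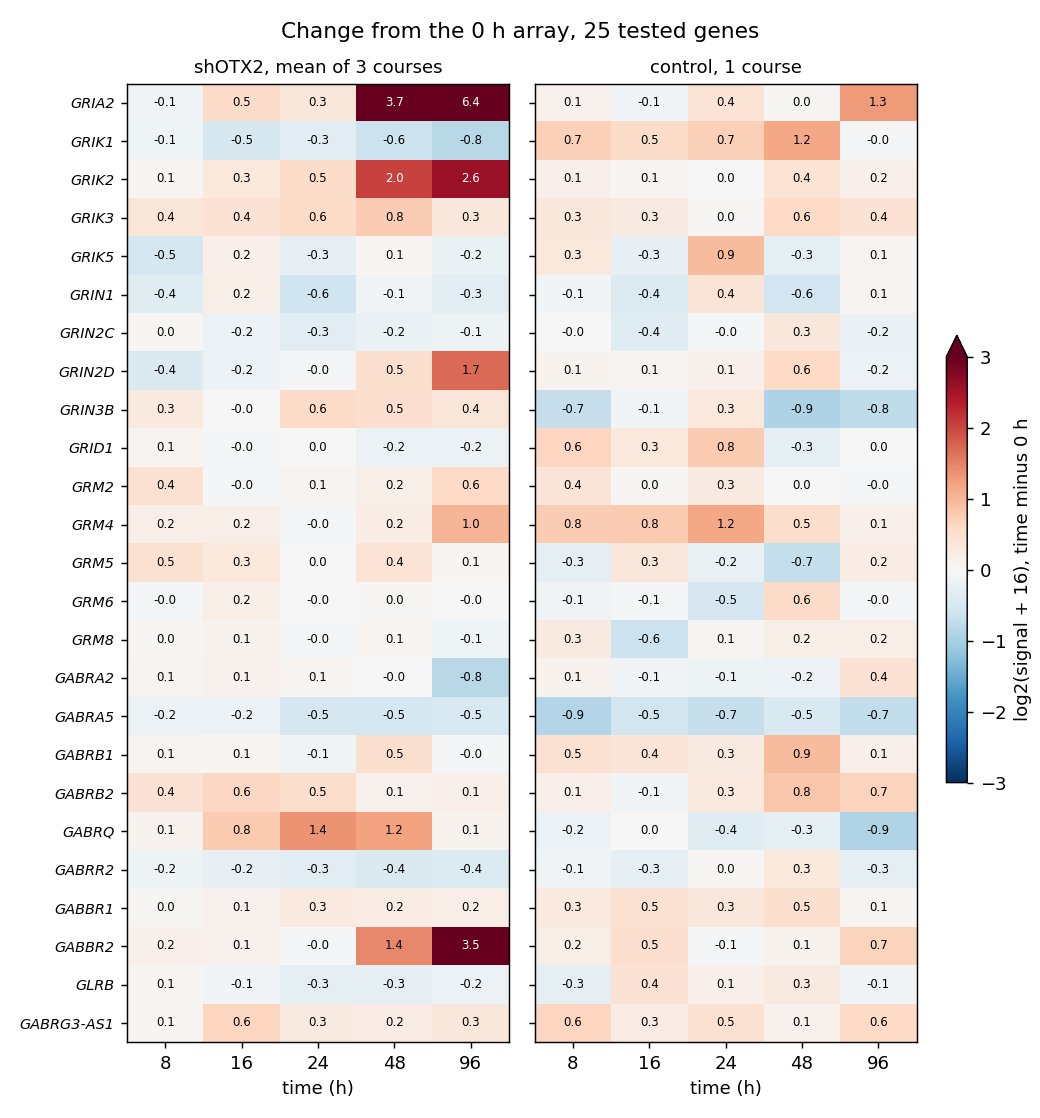
Change in log2(signal + 16) from the 0 h array for the 25 tested genes (down the page, by receptor family) at 8 to 96 h (across), as the mean of 3 shOTX2-labelled courses on the left and in the single control course on the right, with colours saturating at 3. GRIA2, GRIK2 and GABBR2 stand out at 48 and 96 h on the left and GABRQ is darkest at 24 and 48 h.

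GRIA2 showed the largest rise of the 25 genes. It encodes GluA2, the AMPA receptor subunit whose edited form keeps the channel nearly impermeable to calcium. Its signal was 1243.7, 1874 and 1618.7 at 96 h in the 3 shOTX2-labelled courses, against 3.7, 2.3 and 3.5 at 0 h. At 48 h it was 115.4, 203.5 and 548.1, while at 24 h it was still 1.5, 7.5 and 18.6. The groups did not overlap: all 3 courses at 48 h and 96 h lay above every other array, and the highest of the 6 control arrays was 32.1, at 96 h. The log2 change was 3.73 (SE 0.41, adjusted p = 1.54e-06) at 48 h and 6.36 (SE 0.41, adjusted p = 1.26e-09) at 96 h, on the log2(signal + 16) scale, which understates changes from a dim start. A second probe set gave 493.2, 556.5 and 532.4 at 96 h against 0.7, 8.6 and 8.5 at 0 h. The remaining probe set did not pass the filter and stayed at or below 14.6 in every array. The other AMPA receptor genes, GRIA1, GRIA3 and GRIA4, did not pass the filter, so GRIA2 was the only AMPA subunit gene tested.

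Among the kainate receptor genes GRIK2, which encodes the GluK2 subunit, changed most. It gave 79.2, 101.3 and 88.2 at 96 h in the shOTX2-labelled courses, against 1.5, 1.3 and 1.3 at 0 h. At 48 h it was 47.5, 45.3 and 78.1, and the 6 control arrays lay between 1.6 and 7.2. All shOTX2-labelled values at 48 and 96 h lay above all others. The log2 change was 2.04 (SE 0.19, adjusted p = 2.45e-07) at 48 h and 2.60 (SE 0.19, adjusted p = 5.67e-09) at 96 h, and all 3 kept probe sets were called higher at 96 h, with log2 changes of 1.65 to 2.60. GRIK3, another kainate subunit gene, was 33.4, 63.1 and 71.7 at 48 h against 27, 17.4 and 31.8 at 0 h (log2 change 0.77, SE 0.24, adjusted p = 0.0166), but the call was lost without course 2 (adjusted p = 0.271) or course 3 (adjusted p = 0.118). The control course held 31.4 to 55.4 for GRIK3, and the late-against-early change did not differ detectably between the courses (0.03, SE 0.33, adjusted p = 0.96).

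GRIK1, which encodes the GluK1 kainate subunit, was the one member called lower at 96 h. It was 12.5, 11.4 and 8 at 96 h in the shOTX2-labelled courses, against 26.9, 37.1 and 30.4 at 0 h (log2 change -0.83, SE 0.28, adjusted p = 0.0213). These groups did not overlap, but all values are close to the array medians, control arrays ran from 2.8 to 26.9, and a second probe set changed by -0.09. The call was lost without course 2 (adjusted p = 0.112) or course 3 (adjusted p = 0.129). GRIK5, a subunit that needs another kainate subunit to form a channel, changed by -0.20 (adjusted p = 0.577) at 96 h.

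GRIN2D, which encodes the NMDA receptor subunit GluN2D found mainly in immature neurons, rose by 96 h. It was 203.1, 97.7 and 94.8 at 96 h in the shOTX2-labelled courses, against 31.4, 24.2 and 27.3 at 0 h, and the 6 control arrays lay between 18.4 and 43. The 96 h values lay above all others (log2 change 1.69, SE 0.22, adjusted p = 4.84e-06). At 48 h the change was 0.48 (SE 0.22, adjusted p = 0.103), which became a call with the time course as a block (adjusted p = 0.0480). The control course rose at 48 h as well, by 0.61 in its single array. GRIN1, the obligate NMDA subunit, changed by -0.34 (SE 0.44, adjusted p = 0.584) at 96 h, with 7.4, 11.1 and 13 at 96 h and 48.6, 10.1 and 6 at 0 h, where the first course alone was high.

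GRM4, a group III metabotropic receptor of granule neuron axons, was 49.5, 27.8 and 46.6 at 96 h in the shOTX2-labelled courses, against 6.9, 12.8 and 17.1 at 0 h. The log2 change was 1.01 (SE 0.30, adjusted p = 0.0102). Control arrays ran from 6.5 to 34.5 and overlapped the 96 h values, and the call was lost without course 1 (adjusted p = 0.119). The other 4 metabotropic receptor genes tested were not called at 96 h.

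GABRQ was the first receptor gene called, and by 96 h it was no longer called. It encodes the theta subunit of GABA-A receptors. In the 3 shOTX2-labelled courses it was 78, 112.3 and 125.9 at 0 h and 194.5, 218.6 and 162.2 at 16 h. It reached 330.1, 328.4 and 225 at 24 h, then 218.2, 309.1 and 256.6 at 48 h, and it ended at 120.7, 102.3 and 117.1 at 96 h. The 6 control arrays ran from 53 to 115.2. All shOTX2-labelled values at 16, 24 and 48 h thus lay above those at 0 h and in the control course, while those at 96 h overlapped both. The log2 change was 1.36 (SE 0.19, adjusted p = 0.000369) at 24 h, 1.20 (SE 0.19, adjusted p = 0.000104) at 48 h and 0.11 (SE 0.19, adjusted p = 0.694) at 96 h. At 16 h it was 0.79 (SE 0.19, adjusted p = 0.0668), which became a call with the time course as a block (adjusted p = 0.0109). The 24 h call was lost without course 2 (adjusted p = 0.0569), and a second probe set was not called at 24 h (log2 change 0.61) or 48 h (0.54).

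GABRA2, the alpha-2 subunit of GABA-A receptors, was the brightest member at 0 h by its own probe set. It was 136.4, 242.9 and 255.5 at 96 h in the shOTX2-labelled courses, against 270.8, 407.8 and 478.8 at 0 h, and 244.6 to 377.7 in the control course. The fall was of like size in each course, with log2 changes of -0.91, -0.71 and -0.87, but the courses sat at different levels, and without a block it was not called (log2 change -0.83, SE 0.33, adjusted p = 0.053). With the time course as a block it was called (SE 0.10, adjusted p = 9.59e-07). Of its 3 other kept probe sets, 1 was called at 96 h (log2 change -0.80), and the others changed by -0.19 and -0.14 and were not called. GABRA5, an alpha subunit often used to mark group 3 tumours, stayed at or below 28 in every array by all its probe sets. GABRB1 depended on the probe set: the brightest changed by -0.04 at 96 h and was not called, and another was called higher by 1.11. At 48 h that other probe set and the remaining kept one were called higher, by 1.28 and 1.25. The brightest, which gave the counts above, changed by 0.49 at 48 h and was not called.

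The GABA-B receptor is a pair of a ligand-binding subunit, GABBR1, and a G-protein-coupling subunit, GABBR2, that brings it to the cell surface. GABBR2 was 286.5, 237.7 and 221.5 at 96 h in the shOTX2-labelled courses, against 8.2, 1.3 and 13 at 0 h. At 48 h it was 41.6, 26.9 and 81.5, and the 6 control arrays ran from 6.1 to 21. All shOTX2-labelled values at 48 and 96 h lay above all others. The log2 change was 1.44 (SE 0.25, adjusted p = 0.000224) at 48 h and 3.52 (SE 0.25, adjusted p = 4.94e-09) at 96 h. All 4 kept probe sets were called higher at 96 h, with log2 changes of 1.42 to 3.52, while at 48 h 2 of them were not called (0.50, adjusted p = 0.154, and -0.07, adjusted p = 0.913). GABBR1, in contrast, was 59.8, 71.4 and 53.7 at 96 h against 62, 42.1 and 51 at 0 h (log2 change 0.20, SE 0.15, adjusted p = 0.294). The 18 shOTX2-labelled arrays of GABBR1 and the 6 control arrays, at 80.7 to 119.2, did not overlap by this probe set, 0 h included, but by the second kept probe set they did (12.7 to 58.5 in shOTX2-labelled arrays, against 51.1 to 76.2 in control arrays).

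**Figure D2:**
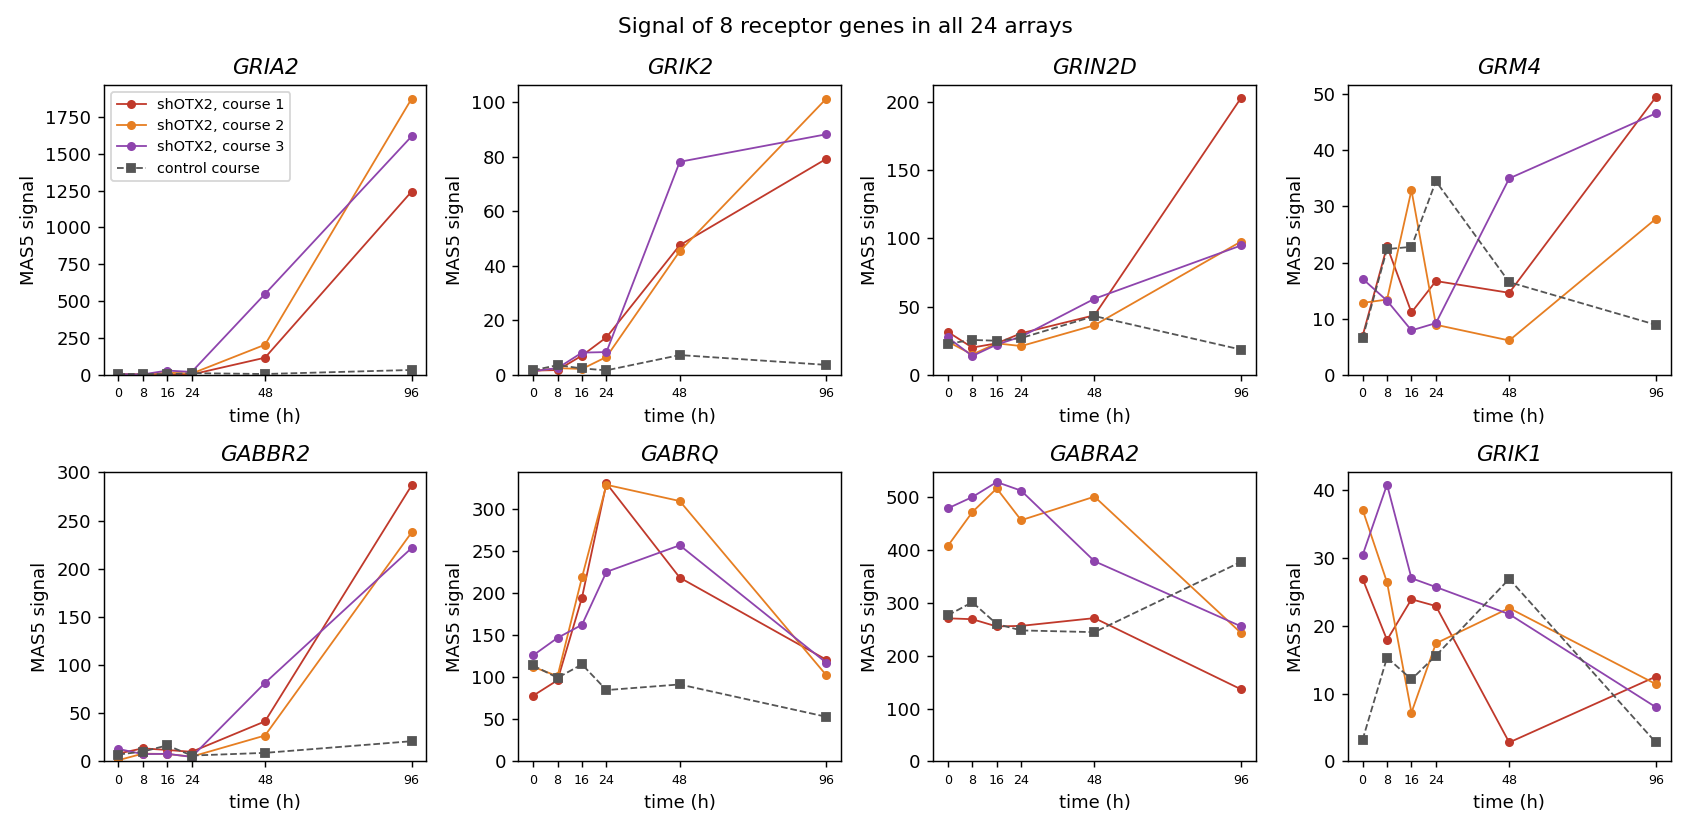
MAS5 signal (linear, from 0) against time for 8 receptor genes, with 1 line for each shOTX2-labelled course and a dashed line for the control course. GRIA2, GABBR2 and GRIN2D are higher at 48 h than at 24 h and highest at 96 h in all 3 shOTX2-labelled courses, GABRQ peaks at 24 to 48 h, and GABRA2 falls by 96 h in all 3 courses.

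The 16 other tested genes, beside the 9 given in full above, changed at 96 h by -0.45 to 0.59 and were not called. Their signals ran from 0.7 to 119.2 with a median of 19.15, so most were close to the array medians, where a change of modest size is not detectable with 3 arrays per group. GRM2, a group II metabotropic receptor, held the top of that range with 35.6, 4.6 and 21.7 at 96 h against 11.2, 1.8 and 8.1 at 0 h, and GABRA5 the bottom with 8.6, 7.7 and 5.7 at 96 h against 28, 12.1 and 10.2 at 0 h. In GRM2 the groups overlapped, and in GABRA5 they did not, although neither was called (adjusted p = 0.211 and 0.199). Of the 12 tested genes with several kept probe sets, 4 had probe sets of both signs at 96 h (GABBR1, GABRB1, GRID1 and GRIN2C). The glycine receptor gene GLRB changed by -0.18 at 96 h, and the antisense RNA GABRG3-AS1 by 0.33. The second kept probe set of GLRB was called lower at 48 h (log2 change -0.62), where the tested one was not (-0.30).

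A test of the difference between the arms set the change in the shOTX2-labelled courses against that in the control course. For late (48 and 96 h) against early (0 and 8 h), 5 members differed: GRIA2, GRIK2, GRIN2D, GABBR2 and GABRQ. All had a more positive change in the shOTX2-labelled courses than in the control course, where GABRQ fell. They were 20% of the 25 against 22.5% of all genes, 10.5% being higher and 12% lower. With the time course as a block GABRA2 differed too, in the other direction, by -0.54 (adjusted p = 0.00735, against 0.479 without the block). GRIA2 moved by 4.46, 5.16 and 5.68 in the 3 shOTX2-labelled courses and by 0.60 in the control course (difference 4.50, SE 0.57, adjusted p = 2.66e-05). GRIK2 moved by 2.14, 2.25 and 2.47, against 0.20 in the control course (difference 2.09, SE 0.27, adjusted p = 2.69e-05). GABBR2 moved by 2.30, 2.35 and 2.54, against 0.30 in the control course (difference 2.10, SE 0.36, adjusted p = 0.000364).

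GRIN2D moved by 1.47, 1.13 and 1.31, against 0.17 in the control course (difference 1.14, SE 0.31, adjusted p = 0.0122), a call lost without course 3 (adjusted p = 0.0568). GABRQ moved by 0.80, 0.68 and 0.33, against -0.51 in the control course (difference 1.11, SE 0.28, adjusted p = 0.00711), a call lost without course 2 (adjusted p = 0.0529). Its second kept probe set gave a difference of 0.20 that was not called (adjusted p = 0.785). For 96 h against 0 h alone, 4 members differed (16% of the 25, against 13.7% of all genes, 6.28% higher and 7.43% lower), GRIA2 by 5.09, GABBR2 by 2.84, GRIK2 by 2.44 and GRIN2D by 1.86. The GRIN2D call was lost when only the groups compared were fitted (adjusted p = 0.0661). With the time course as a block GABRA2 differed too, by -1.26 (adjusted p = 0.000159, against 0.255 without it), as did GABRQ, by 1.02 (adjusted p = 0.0382, against 0.0952 without it). The GABRQ difference lay mostly in a fall of the control course, by -0.91, while the shOTX2-labelled courses changed by 0.11. GRM4, called at 96 h within the shOTX2-labelled courses, did not differ detectably from the control course (0.87, SE 0.60, adjusted p = 0.408). Each control time is 1 array, so the control's own spread is assumed equal to that of the shOTX2-labelled groups, and construct, course and hairpin cannot be told apart in the difference. The 3' to 5' ratio of the actin control probe sets, a measure of RNA integrity, averaged 1.42, 2.07 and 1.91 in the 3 shOTX2-labelled courses and 1.40 in the control course. The part of this ratio in the difference was not tested.

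**Figure D3:**
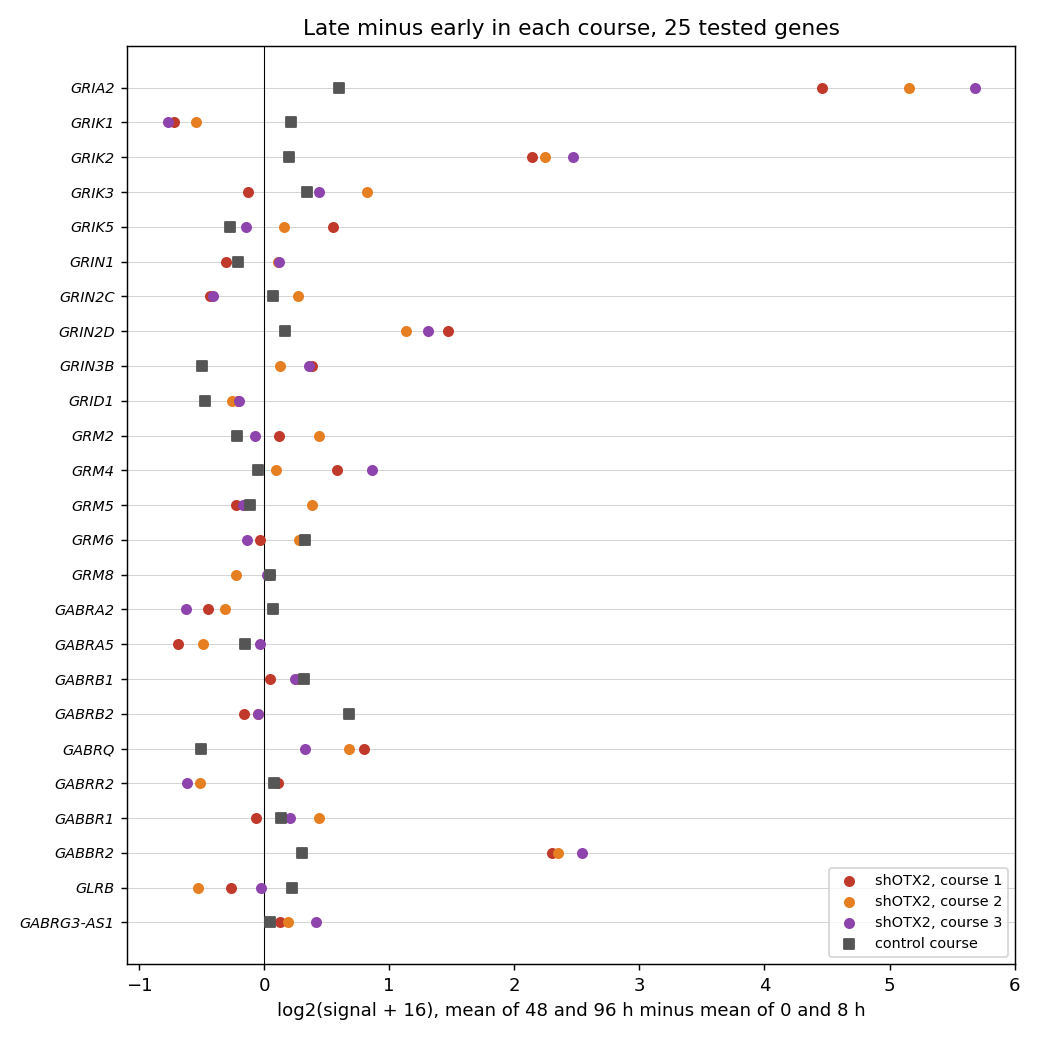
Log2(signal + 16), mean of 48 and 96 h minus mean of 0 and 8 h, for the 25 tested genes (down the page) in each shOTX2-labelled course (circles) and the control course (square). The circles lie right of the square and apart from it for GRIA2, GRIK2, GRIN2D and GABBR2, and to a lesser degree for GABRQ.

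Receptors work with auxiliary subunits, scaffolds, transporters and enzymes, and 4 lists of these held 101 genes, of which 60 were tested. At 96 h 11 were higher and 17 lower, with a median log2 change of -0.13, where 21.1% of all genes tested were called higher and 22.5% lower. These are changes within the shOTX2-labelled courses, and not all of them were called in the difference from the control course.

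Of 12 AMPA and kainate auxiliary subunits tested, none rose and 3 fell. The kainate receptor partners NETO2 and NETO1 fell by 1.00 and 0.91 on the log2 scale, and NETO2 averaged 863.6 at 96 h (SD 8.6) against 1757 at 0 h (SD 238, n = 3 each). CNIH4, a cornichon family member, fell by 0.43, with 3 of its 5 kept probe sets lower and 2 higher. NETO1 was dim, at 4.2 to 9 at 96 h against 20.9 to 28.7 at 0 h and 9.4 to 20.4 in control arrays, close to or below the array medians. Thus GRIK2 rose at 96 h while both NETO genes fell, NETO1 from a low level.

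Of 17 excitatory scaffold and trafficking genes tested, 5 rose and 4 fell. HOMER3, a scaffold that links metabotropic glutamate receptors to intracellular calcium stores, averaged 899 at 96 h (SD 300.3) against 46.6 at 0 h (SD 7.35, n = 3 each, log2 change 3.83, SE 0.28, adjusted p = 5.38e-09), while HOMER2 and HOMER1 changed by -1.35 and -0.72. The Homer family thus split by member. ADARB1, the RNA-editing enzyme that recodes the GluA2 transcript, averaged 688 at 96 h (SD 71.0) against 130 at 0 h (SD 10.3, n = 3 each, log2 change 2.27, SE 0.12, adjusted p = 2.54e-10), with 2 of its 3 kept probe sets higher and 1 lower. ADARB1 and GRIA2 were both called higher at 96 h. GRIP1, a scaffold that binds GluA2, changed by -1.24.

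Of 13 inhibitory scaffold and trafficking genes tested, 2 rose and 2 fell. GABARAPL2, of the family that binds GABA-A receptors in traffic, changed by 0.61 and TRAK1 by 0.54. KCTD12, an auxiliary subunit of GABA-B receptors, fell by 1.00 on the log2 scale while GABBR2 rose, and GPHN, the gephyrin scaffold, fell by 0.44. In the late-against-early difference from the control course, TRAK1 and GPHN were not called (limma, adjusted p = 0.0524 and 0.198). GABARAPL2 and KCTD12 were called there.

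Of 18 transmitter synthesis and transport genes tested, 4 rose and 8 fell. SLC17A7, the vesicular glutamate transporter 1, averaged 976.3 at 96 h (SD 273) against 229.8 at 0 h (SD 58.8, n = 3 each, log2 change 2.01, SE 0.23, adjusted p = 1.08e-06). ABAT, which breaks down GABA, averaged 107 at 96 h (SD 30.8) against 1.10 at 0 h (SD 0.60, n = 3 each), a log2 change of 2.81 (SE 0.22, adjusted p = 1.13e-08). By this probe set ABAT read 0.5 to 1.7 at 0 h and 0.4 to 8.8 in control arrays, below every array median. It thus passed the filter through shOTX2-labelled arrays after 0 h alone, and its p-value is descriptive. SLC6A13, a GABA transporter, changed by 1.17, and GLUL, glutamine synthetase, by 0.85. Among those that fell, SLC1A3, a glial glutamate transporter, changed by -1.63, GOT2 by -1.10, SLC1A4 by -1.06 and GOT1 by -0.89, the GOT enzymes making and using glutamate.

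**Figure D4:**
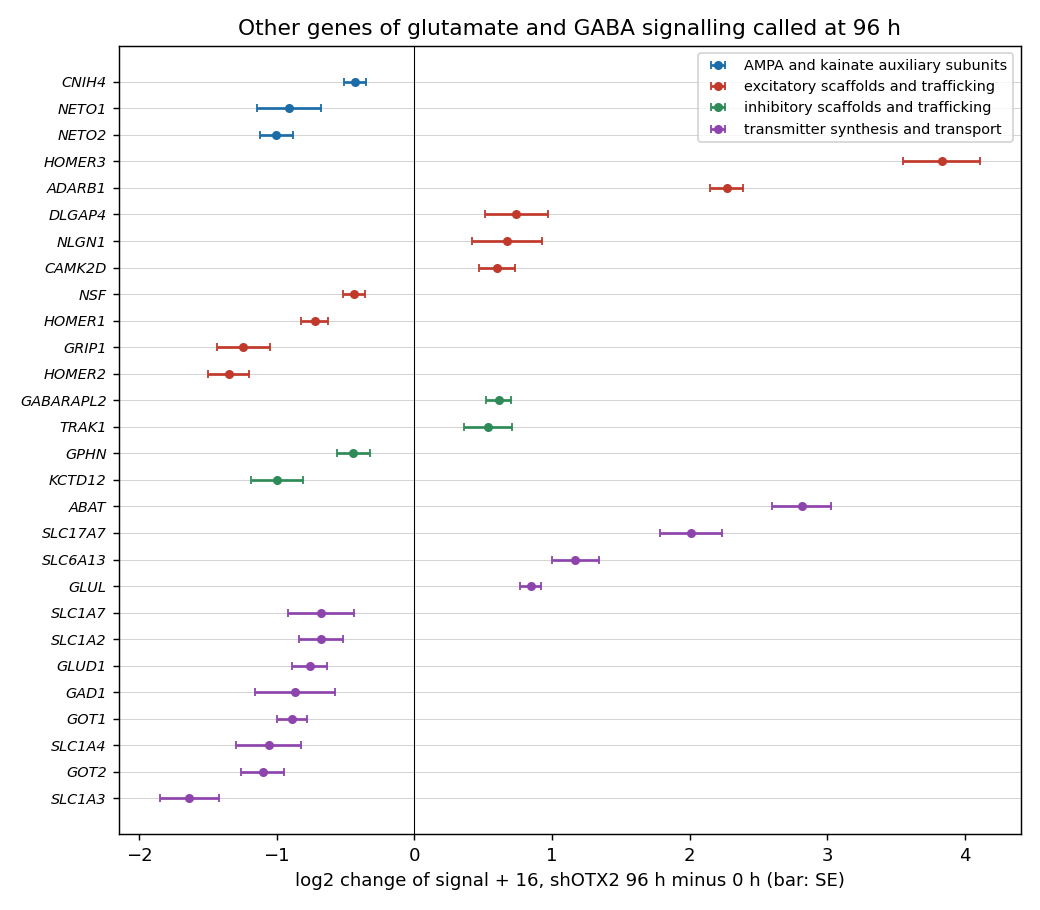
Log2 change of signal + 16, 96 h minus 0 h in the shOTX2-labelled courses, with its standard error, for the 28 genes of the 4 lists that were called at 96 h, coloured by list. HOMER3, ABAT, ADARB1 and SLC17A7 are farthest to the right, and SLC1A3, HOMER2 and GRIP1 farthest to the left.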

How the data were processed

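Arrays were grouped by the labels into 12 groups (3 shOTX2-labelled arrays or 1 control array each). The deposited values are MAS5 intensity on a linear scale: the submitters' processing notes name GCOS and MAS5, whose versions are not given in the sources used here. Every array's trimmed mean was 100.011 to 100.014, so a change shared by most genes would not be seen. Precision is limited by the number of arrays, since arrays have no depth. Probe sets with 1 symbol (41097 of 54675) were named from the platform annotation, with symbols updated through RefSeq; 1801 had several and were left unnamed, and 11777 were not listed. Each gene was read by its probe set with the highest mean among those above the array median in at least 3 arrays. Some probe sets can bind related transcripts.

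Values were tested as log2(signal + 16) with limma 3.58.1 in R 4.3.3 over all 24 arrays (lmFit on group means, eBayes with trend), adjusted by Benjamini-Hochberg over 13903 genes, with a call at an adjusted p under 0.05. The fit was tested on simulated data. Alternatives were the pseudocount, the filters, the normalization, the probe set choice, the time course as a block, the arrays in the fit and leaving out each course. Same-course deviations correlated above 0.1 in all 45 pairs (0.16 to 0.56, median 0.24), and the design text describes independent courses, so the course number pairs arrays.

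The genes and lists were chosen with earlier results of these data known. Arrays were shown for members called at 96 h or in the late-against-early difference or above 200 at 0 h, and for OTX2; GRIK3, GRIN1, GRIK5, GABRA5, GABRB1, GABBR1, GLRB, GRID1, GRIN2C, GRM2 and GABRG3-AS1 were named after their values were seen. Of the lists, the largest called changes each way were named.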

Additional observations from a re-analysis of the deposited data

Results flagged for a closer look

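The change in the shOTX2-labelled courses differed from that in the control course, by limma's test of the difference, in 5 receptor genes for late (48 and 96 h) against early (0 and 8 h): GRIA2 by 4.50, GABBR2 by 2.10, GRIK2 by 2.09, GRIN2D by 1.14 and GABRQ by 1.11 on the log2 scale. For 96 h against 0 h it differed in 4, GRIA2 by 5.09, GABBR2 by 2.84, GRIK2 by 2.44 and GRIN2D by 1.86, the last not called when only the groups compared were fitted (adjusted p = 0.0661). The control has 1 array at each time. Groups of 3 arrays are too small to test for a single array apart from the others.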

How the results depend on the processing

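For 9 genes in 5 comparisons, 45 results gave 510 values under alternatives: 484 kept their side of the threshold (472 of them with the same sign), 17 were newly called and 9 were no longer called. The 12 values whose sign turned were not called under the alternative, nor without it. A stricter filter leaves fewer receptor genes to test, so a lower number of calls under it was partly fixed in advance. The counts that follow are given without the share of all genes called under each setting. They therefore show only how the number of calls moved. With a filter on a mean signal above 50, which leaves GRIA2, GABRQ, GABRA2 and GABBR1 to test, 2 were called at 48 h, 2 at 96 h, 2 in the late-against-early difference and 1 in the 96 h difference, against 5, 6, 5 and 4. The mean of a gene's probe sets gave 8 at 48 h, and a pseudocount of 4 gave 2 at 24 h. The time course as a block gave 1 at 16 h (GABRQ), 6 at 48 h, 7 at 96 h and 6 in each difference. Leaving out 1 course gave 0 at 8 h and 16 h, 0 to 1 at 24 h, 4 to 6 at 48 h, 5 to 8 at 96 h, 4 to 6 in the late-against-early difference and 4 to 5 in the 96 h difference. Without course 2 GABRQ was not called at 24 h. GRIN2D was not called in the 96 h difference when only the groups compared were fitted (adjusted p = 0.0661). With every array centred on its own median, the median change of all genes at 96 h was -0.12 and calls split into 2350 higher and 3754 lower, against 2937 and 3128. Most receptor genes lie near the array medians, so small changes in them are not detectable here.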
